A study of Homo sapiens with 2 samples.

Results

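The proteasome is the protease that degrades ubiquitin-tagged proteins in the cytosol and nucleus. Its core particle, the 20S, is a stack of rings in which alpha subunits form the gate and beta subunits carry the active sites. A cap, the 19S, recognises ubiquitin, unfolds the substrate with a ring of ATPases and feeds it into the core. Other activators can replace that cap, interferon can exchange the active beta subunits for immune forms, and dedicated chaperones build the particle. Plasma cells and the myelomas derived from them make large amounts of antibody protein and are known for their sensitivity to proteasome inhibitors such as bortezomib.

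The proteasome genes described here are those whose symbol starts with PSM, a letter from A to G and a number, plus POMP. RNA of LP-1, an established line of human myeloma cells, was hybridised to 2 whole-transcript Affymetrix arrays. In the HIF2A array the cells had been infected with the vector pRUF-IRES-GFP carrying full-length human HIF-2α cDNA. HIF-2α, the product of EPAS1, is a transcription factor subunit that is stable when oxygen is low. In the vector control array they carried pRUF-IRES-GFP alone, so both lines share the stably introduced GFP vector. The labels do not say whether either line is a clone or a pool.

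The pattern found 48 symbols among the 18377 genes with a probe set of a single symbol. Of these, 46 are proteasome subunits, activators or assembly factors. PSMC3IP and PSME3IP1 name proteins after their binding partners and are no subunits, and they are left out of all counts, with differences of -0.43 and -0.41. PSMC5, PSMD7 and PSMD13 were not analysed here. A gene with several probe sets took the brightest, and 44 of the 46 passed a filter that asked for a log2 signal of at least 4.01 in the brighter array, which is the middle of the mean signals over all probe sets. The others are PSMA8, a testis-specific alpha subunit, at 3.32 in the HIF2A array and 3.31 in the vector control, and PSMB11, a subunit of thymic epithelium, at 3.12 in the HIF2A array and 3.20 in the vector control. As a measure of background, 339 olfactory receptor genes had a 95th percentile of 3.58 in each array, and PSMA8 and PSMB11 stayed under it.

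The signal of EPAS1 was 9.05 in the HIF2A array and 3.70 in the vector control. All 10 plasma cell markers looked at passed the filter. SLAMF7, at 4.24 in the HIF2A array and 6.63 in the vector control, and TNFRSF17, at 7.68 in the HIF2A array and 8.71 in the vector control, were the 2 that differed 2-fold. Of markers of other cells, 1 of 5 for T and NK cells, 1 of 5 for myeloid cells, 2 of 5 for stromal cells and 0 of 2 for erythroid cells passed it, and none of these 17 exceeded 4.81 in either array. All differences below are HIF2A minus vector control on the log2 scale. With 1 array per group there is no replicate check, no test and no error across cultures. Fewer cells of a kind and less RNA per cell cannot be told apart in such bulk RNA. As a yardstick within the arrays, the first 2 differing probe sets of 346 genes had a median gap of 0.14 between their differences. The robust SD of the differences over the 11469 genes past the filter was 0.34. Their quartiles were -0.20 and 0.26, so a difference beyond the gap is common among all genes. The gap compares probe sets on the same 2 arrays and does not measure variation between cultures.

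Transcripts of the 20S core were lower in the HIF2A array throughout. All 14 standard core genes past the filter and all 3 immunoproteasome genes had a lower signal in that array, by a median difference of -0.33 over the 17. Over all 11469 genes 46.1% were lower by any amount and the median difference was 0.03. The other 27 proteasome genes went both ways, with 15 lower, 12 higher and a median of -0.12, where 52.6% of all genes were higher by any amount. Among all 44 genes 32 were lower and 12 higher, with a median of -0.17. For the 7203 genes between the dimmest and the brightest of the 44, mean signals of 4.98 and 10.6, the share lower was 44.7% and the median 0.04. After the median of the nearest genes on the chromosome was subtracted, as described below, 20 of the 27 other genes were lower and 7 higher. The difference between core and other genes was not tested.

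The differences were small. At least 1.5-fold lower were 4 of the 44 genes, PSMA2, PSMB5, PSME2 and PSMB9, against 4.76% of all genes. At least 1.5-fold higher were 0 of 44, against 5.67% of all genes. No member differed 2-fold, a size reached by 0.732% of all genes on the lower and 0.706% on the higher side. PSMB9 fell short of the limit under median centring, at -0.57. After the median of 20 neighbours was subtracted, PSMA2 fell short at -0.49, while PSMA1 and PSMB8 passed it at -0.70 and -0.66. PSMB9 at -0.59 lies just inside the 1.5-fold limit and the assembly chaperone gene PSMD10 at -0.54 just outside it. A limit of 1.2-fold, chosen after seeing the data, was passed on the lower side by 16 of the 44, against 19.7% of all genes, and 10 of these 16 belong to the 17 core and immunoproteasome genes. On the higher side 4 of 44 passed it, against 24.8% of all genes, and 0 of these 4 are core or immunoproteasome genes.

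**Figure D1:**
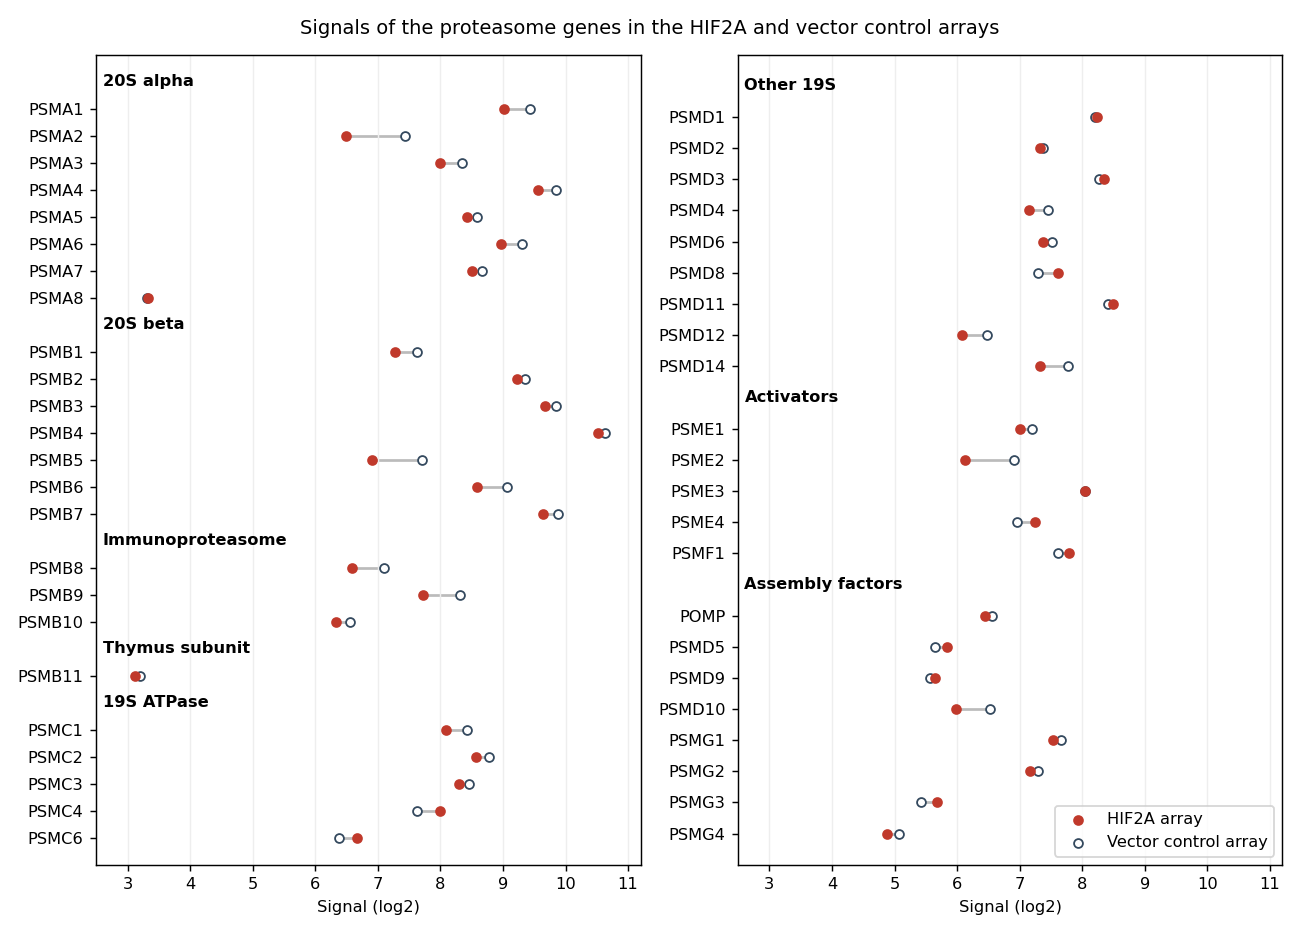
Log2 signal (horizontal axis) of each of the 46 proteasome genes, by class, with filled points for the HIF2A array and open points for the vector control array. The filled point lies to the left of the open one for every 20S alpha, 20S beta and immunoproteasome gene past the filter, while the points of the 19S, activator and assembly genes lie on both sides.

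The promoters of PSMA2, PSMB5, PSME2 and PSMB9, which passed the 1.5-fold limit, and of PSMC4, the gene with the largest positive difference, are shown because these members mark both ends of the range. Each runs from 250 bases before to 50 after an annotated start, 5′ to 3′ on the gene's strand, from RefSeq on GRCh38.p14. Capitals mark every match, on either strand, to TGACNNNGC (the antioxidant response element bound by NFE2L1, the transcription factor known for inducing proteasome genes), to ACGTG or GCGTG (the core letters of the hypoxia response element bound by HIF), to CCAAT, or to TTTC, any 2 bases and TTTC (the interferon-stimulated response element). PSMA2 lies at chr7:42932125-42932424 on the minus strand, PSMB5 at chr14:23035171-23035470 on the minus strand for the outermost of its 2 starts, PSME2 at chr14:24146561-24146860 on the minus strand, PSMB9 at chr6:32853942-32854241 on the plus strand and PSMC4 at chr19:39970915-39971214 on the plus strand.
PSMA2: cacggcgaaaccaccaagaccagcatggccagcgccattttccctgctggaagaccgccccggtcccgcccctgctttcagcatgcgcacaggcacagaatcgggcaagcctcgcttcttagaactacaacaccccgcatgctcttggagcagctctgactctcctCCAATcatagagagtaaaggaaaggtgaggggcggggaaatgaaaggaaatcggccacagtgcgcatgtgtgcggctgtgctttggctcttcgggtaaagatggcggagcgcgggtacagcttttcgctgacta
PSMB5: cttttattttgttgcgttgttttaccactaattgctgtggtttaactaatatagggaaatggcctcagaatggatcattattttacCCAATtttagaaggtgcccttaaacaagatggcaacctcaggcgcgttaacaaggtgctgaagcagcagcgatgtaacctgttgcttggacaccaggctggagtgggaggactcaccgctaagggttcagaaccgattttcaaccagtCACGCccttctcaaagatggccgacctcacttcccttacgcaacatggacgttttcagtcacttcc
PSME2: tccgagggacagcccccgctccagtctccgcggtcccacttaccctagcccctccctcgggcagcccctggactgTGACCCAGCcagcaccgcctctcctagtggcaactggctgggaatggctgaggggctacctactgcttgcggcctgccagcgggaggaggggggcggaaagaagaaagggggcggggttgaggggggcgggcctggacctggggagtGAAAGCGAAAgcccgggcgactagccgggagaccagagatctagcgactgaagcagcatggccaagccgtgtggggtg
PSMB9: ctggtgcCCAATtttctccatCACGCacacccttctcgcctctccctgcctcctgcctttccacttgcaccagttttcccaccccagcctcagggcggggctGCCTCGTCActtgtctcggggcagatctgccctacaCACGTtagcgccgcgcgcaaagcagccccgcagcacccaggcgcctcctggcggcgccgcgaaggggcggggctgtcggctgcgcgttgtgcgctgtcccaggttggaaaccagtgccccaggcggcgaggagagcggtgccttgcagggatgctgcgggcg
PSMC4: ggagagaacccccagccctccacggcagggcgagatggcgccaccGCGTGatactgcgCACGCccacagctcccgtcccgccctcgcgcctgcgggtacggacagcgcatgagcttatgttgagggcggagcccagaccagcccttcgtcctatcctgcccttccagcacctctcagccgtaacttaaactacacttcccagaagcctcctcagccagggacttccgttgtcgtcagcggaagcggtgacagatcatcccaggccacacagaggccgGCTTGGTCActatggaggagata

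In the window of PSME2 the interferon element starts 28 bases before the annotated start, and an antioxidant element starts 175 bases before it. PSMB9 holds an antioxidant element, both hypoxia cores and CCAAT. PSMB5 and PSMA2 each hold CCAAT, and PSMB5 also a GCGTG core read on the other strand. PSMC4 holds GCGTG at 2 places and an antioxidant element 27 bases after the start. A match of such short letters is a description, not a binding site.

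RefSeq promoters, 48 in number, were found for 40 of the 46 genes. The antioxidant element stood in 14 of the 48, against 13.3% of all 35116 promoters and 14.9% of the 12969 promoters of genes past the filter. By class it stood in 3 of 20 promoters of the 20S genes and in 11 of 28 of the other proteasome genes. ACGTG stood in 11 of 48, or 22.9%, against 21.4% of all promoters and 25.8% of those of genes past the filter. GCGTG stood in 19, or 39.6%, against 36.5% of all and 49.2% of those of genes past the filter. CCAAT stood in 18, or 37.5%, against 34.6% of all and 34.3% of those of genes past the filter.

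The interferon element stood in 7 of the 48 promoters, against 3.57% of all promoters and 2.65% of those of genes past the filter. These are promoters of PSMB8, PSMB10, PSME1 and PSME2, which are known to be induced by interferon, and of PSMB4, PSMA4 and PSMG4. All 7 genes had a lower signal in the HIF2A array, with differences between -0.79 and -0.11 and a median of -0.22. Of these 7, 4 are core or immunoproteasome genes, the classes in which every gene past the filter was lower. Of the 31 members past the filter with a promoter but without that element, 20 were lower and 11 higher, with a median of -0.14. The immunoproteasome gene PSMB9, at -0.59, is among these 31. With the antioxidant element 8 of 14 were lower, and without it 19 of 24. With ACGTG 7 of 10 were lower, and without it 20 of 28. With GCGTG 12 of 17 were lower, and without it 15 of 21. With CCAAT 14 of 17 were lower, and without it 13 of 21. By class, CCAAT stood in 9 of 20 promoters of the 20S genes and in 9 of 28 of the others. For ACGTG these counts were 6 of 20 and 5 of 28, and for GCGTG 7 of 20 and 12 of 28. As for the antioxidant element, the splits therefore do not separate element from class.

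The alpha rings of the 20S control entry of the substrate. PSMA2 had the largest difference of all members, with a signal of 6.49 in the HIF2A array and 7.44 in the vector control, 1.93-fold lower. It also lies on chromosome 7 among genes that were lower, since the median over the 20 nearest genes past the filter was -0.46, which leaves -0.49 when subtracted. PSMA1 had 9.02 in the HIF2A array and 9.44 in the vector control, among neighbours with a median of 0.28 in the opposite direction.

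PSMA3 had 7.99 in the HIF2A array and 8.34 in the vector control. PSMA6 had 8.97 in the HIF2A array and 9.30 in the vector control. PSMA4, whose tail takes part in closing the gate, had 9.56 in the HIF2A array and 9.85 in the vector control. These differences, from -0.29 to -0.35, are close in size to the robust SD over all genes, 0.34. They exceed the typical gap between probe sets of a gene, as is common among all genes. PSMA5 had 8.43 in the HIF2A array and 8.59 in the vector control, and PSMA7 had 8.51 in the HIF2A array and 8.66 in the vector control, differences of -0.16 and -0.15 that are close to that gap. The neighbours of PSMA5 had a median of -0.25, lower than the gene's own difference. The 7 alpha genes had a median of -0.33.

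The beta rings hold the 3 active sites of the core. PSMB5, the chymotrypsin-like subunit and main target of bortezomib, had 6.90 in the HIF2A array and 7.71 in the vector control, 1.75-fold lower. PSMB6, the caspase-like subunit, had 8.58 in the HIF2A array and 9.07 in the vector control, a difference of -0.49. PSMB7, the trypsin-like subunit, had 9.64 in the HIF2A array and 9.88 in the vector control, a difference of -0.24. All 3 active subunits were thus lower, and their neighbours on the chromosome had medians between -0.02 and 0.11.

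The other beta subunits have no protease activity. PSMB1 had 7.27 in the HIF2A array and 7.62 in the vector control. PSMB2 had 9.22 in the HIF2A array and 9.36 in the vector control. PSMB3 had 9.67 in the HIF2A array and 9.85 in the vector control, and PSMB4 had 10.52 in the HIF2A array and 10.63 in the vector control. Only PSMB1, at -0.35, exceeded the probe set gap by a wide margin, and PSMB4 had the smallest difference of the core, -0.11. The 7 standard beta genes had a median of -0.24.

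The immunoproteasome genes encode the active subunits that interferon induces and that shape peptides for antigen presentation. PSMB8, the immune counterpart of PSMB5, had 6.58 in the HIF2A array and 7.10 in the vector control. PSMB9, the counterpart of PSMB6, had 7.72 in the HIF2A array and 8.31 in the vector control, 1.51-fold lower. PSMB10, the counterpart of PSMB7, had 6.33 in the HIF2A array and 6.55 in the vector control. Both the immune and the standard form of each pair were lower in the HIF2A array. Within the pairs, the immune minus the standard difference was 0.29 for PSMB8 and PSMB5, -0.10 for PSMB9 and PSMB6 and 0.02 for PSMB10 and PSMB7. The array annotation lists PSMB8 and PSMB9 with 3 probe sets each, whose values are identical and were counted once. The neighbours of the 3 genes had small positive medians of 0.14, 0.16 and 0.14, close to the probe set gap of 0.14, while the genes themselves were lower. PSMB8 and PSMB9 both lie on chromosome 6, and how far their neighbours overlap was not counted.

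**Figure D2:**
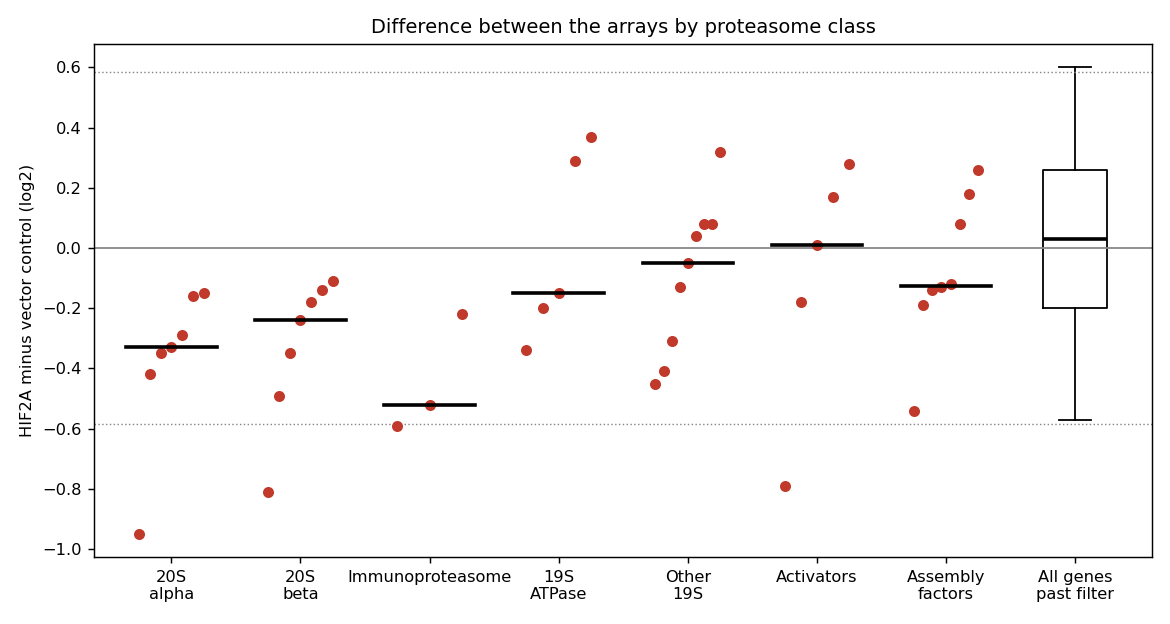
Difference in log2 signal, HIF2A minus vector control, for each gene past the filter (points) by class, with the class median as a bar, and for all 11469 genes as a box of quartiles with whiskers at the 5th and 95th percentiles. Dotted lines mark 1.5-fold. All points of the 3 core classes lie below 0, while each of the other classes has points on both sides.

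The ATPases of the 19S cap unfold the substrate. PSMC4 had 7.99 in the HIF2A array and 7.62 in the vector control, a difference of 0.37 and the largest positive one of the members. PSMC1, PSMC2 and PSMC3 had differences of -0.34, -0.20 and -0.15, and PSMC2 and PSMC3 came to -0.03 and -0.43 after their neighbours were subtracted. PSMC1 has another probe set, which also differed by -0.34. The 2 probe sets of PSMC6 disagreed, since the brighter had 6.67 in the HIF2A array and 6.38 in the vector control and the dimmer had 6.26 in the HIF2A array and 6.59 in the vector control. The direction of PSMC6 is therefore not settled. Several 19S and other proteasome genes have pseudogenes in RefSeq, and cross-hybridization was not analysed here.

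The remaining 19S genes build the scaffold of the cap, the ubiquitin receptors and the lid. PSMD14, the deubiquitinase that strips ubiquitin from the substrate, had 7.32 in the HIF2A array and 7.77 in the vector control. PSMD12, a lid scaffold subunit, had 6.07 in the HIF2A array and 6.48 in the vector control. PSMD4, a ubiquitin receptor, had 7.15 in the HIF2A array and 7.46 in the vector control. These were the 3 lowest of the 9, at -0.45, -0.41 and -0.31. PSMD8, another lid subunit, had 7.62 in the HIF2A array and 7.30 in the vector control, the opposite direction. The scaffold genes PSMD1 and PSMD2 differed by 0.04 and -0.05, and the lid genes PSMD3, PSMD6 and PSMD11 by 0.08, -0.13 and 0.08, all within the probe set gap. Of the 14 cap genes 8 were lower and 6 higher, with a median of -0.09. After the median of 20 neighbours was subtracted, 11 were lower and 3 higher, with a median of -0.145. Over all genes past the filter, that subtraction left 5710 lower and 5665 higher. With the dimmest probe sets 9 cap genes were lower and 5 higher, with a median of -0.14. The cap counts follow the naming pattern. They leave out SEM1, a small 19S subunit, at -0.88 and the ubiquitin receptor ADRM1 at 0.25, which are listed with the partners below.

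The activators open the core without ubiquitin. PSME1 and PSME2 form the interferon-inducible activator together. PSME2 had 6.12 in the HIF2A array and 6.91 in the vector control, 1.73-fold lower, while PSME1 had 7.01 in the HIF2A array and 7.19 in the vector control, a difference of -0.18. The genes lie close to each other on chromosome 14, and the neighbours of both had medians near 0, at 0.03 for PSME1 and 0.01 for PSME2. PSME3, the nuclear activator, had 8.05 in the HIF2A array and 8.04 in the vector control, a difference that changes sign after loess centring or subtraction of neighbours. PSME4, a large nuclear activator, had 7.24 in the HIF2A array and 6.96 in the vector control. PSMF1, a regulator named for inhibiting the core in vitro, had 7.79 in the HIF2A array and 7.62 in the vector control. The interferon-inducible members were thus the 2 lower ones of the 5, whose median was 0.01 and whose mean was -0.10, so that median and mean differ in sign.

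The assembly factors showed no common direction, with 5 of 8 lower, 3 higher and a median of -0.13. PSMD10, also known as gankyrin and a chaperone of the ATPase ring, had 5.98 in the HIF2A array and 6.52 in the vector control. The other chaperones of that ring, PSMD5 and PSMD9, had 5.83 and 5.65 in the HIF2A array, against 5.65 and 5.57 in the vector control. POMP, which brings the beta subunits onto the alpha ring, had 6.44 in the HIF2A array and 6.56 in the vector control. PSMG1 and PSMG2, partners in starting the alpha ring, differed by -0.13 and -0.14, and PSMG3 and PSMG4, partners in the next step, by 0.26 and -0.19. Apart from PSMD10 at -0.54, PSMG3, PSMG4 and PSMD5 alone exceeded the probe set gap of 0.14. POMP came to -0.31 after its neighbours were subtracted.

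The median difference of the 20 nearest genes ran from -0.46 for PSMA2 to 0.28 for PSMA1 and PSMC3, so each gene was set beside its neighbours. Whether whole chromosome stretches differ between the arrays was not tested. After subtracting the median of the 20 nearest genes, 16 of the 17 core and immunoproteasome genes were still lower, PSMA5 being the exception at 0.09. Of the 27 other genes 20 were lower and 7 higher. Over all genes past the filter, the same subtraction left 5710 lower and 5665 higher. The 44 genes are spread over 18 chromosomes, and the median of the core genes without the immune forms came to -0.33 after the subtraction, against -0.31 before it.

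**Figure D3:**
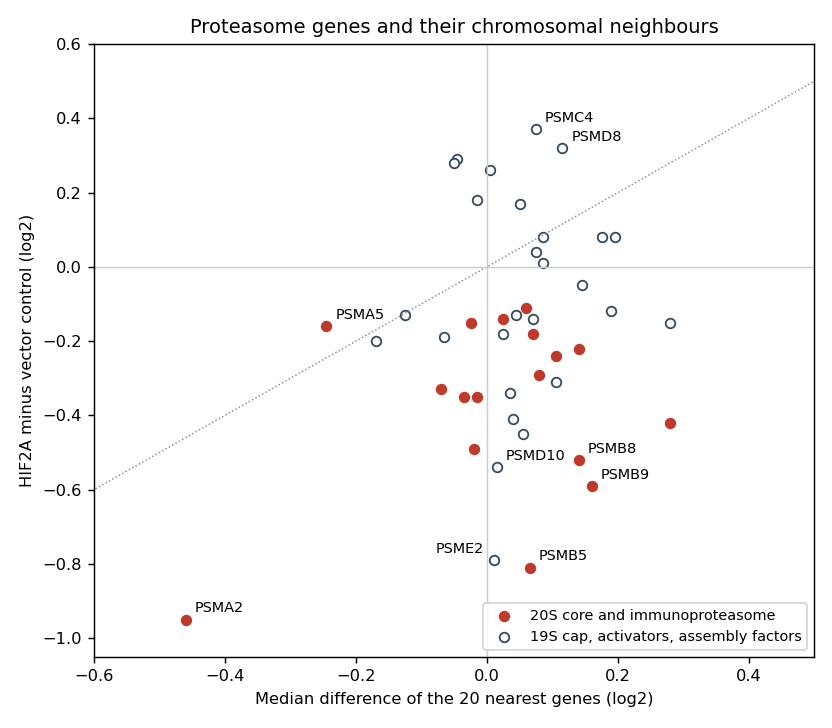
Difference in log2 signal, HIF2A minus vector control, of each proteasome gene past the filter (vertical axis) against the median difference of its 20 nearest measured genes on the chromosome (horizontal axis), with filled points for 20S core and immunoproteasome genes and open points for the rest. The dotted line marks equality. PSMA2 at -0.95 is the 1 strongly lower gene whose neighbours were clearly lower too, at -0.46.

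Partners of the proteasome outside the naming pattern were lower in 9 of 12 cases, against 46.1% of all genes, with a median of -0.15 that came to -0.09 after subtraction of neighbours. SEM1, a small 19S subunit that is also part of other complexes, had 8.28 in the HIF2A array and 9.16 in the vector control. ZFAND2A, a stress-induced proteasome-binding protein, had 5.40 in the HIF2A array and 6.30 in the vector control. PAAF1, which binds 19S ATPases, differed by -0.50. These 3 were the lowest, and SEM1 and ZFAND2A passed the 1.5-fold limit. On the other side, the thioredoxin-like partner TXNL1 and the ubiquitin receptor ADRM1 were higher by 0.30 and 0.25.

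Of 14 regulators of proteasome gene transcription looked up, 12 had a value, without MAFK and DDI2. Among these 12, 7 were lower and 4 higher, against 46.1% and 52.6% of all genes. Their median was -0.06 and came to -0.09 after subtraction of neighbours. The related factors NFE2L2, NFE2L1 and NFE2L3 were the lowest, at -0.52, -0.41 and -0.32. NFE2L1, the factor known for raising proteasome transcription when the proteasome is inhibited, had 7.54 in the HIF2A array and 7.95 in the vector control. NFE2L3 lies among neighbours with a median of -0.30. NGLY1, the deglycosylase that NFE2L1 needs, was higher by 0.16 and STAT3 by 0.18.

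Genes of interferon signalling and peptide loading had a median of 0.08, near the 0.03 of all genes, with 10 of 14 higher against 52.6% of all genes and 3 lower. Of the 10, which include IRF1, the genes IFNGR2, NLRC5, IRF8 and TAP2 differed by 0.03, 0.04, 0.06 and 0.10, inside the probe set gap. After subtraction of neighbours the median was 0.15. TAP1, the peptide transporter gene that is transcribed away from PSMB9 off a shared promoter region, had 8.50 in the HIF2A array and 7.97 in the vector control, whereas PSMB9 differed by -0.59. ERAP2, which trims peptides in the endoplasmic reticulum, had 6.0 in the HIF2A array and 4.55 in the vector control. JAK1, which transmits the interferon signal, was higher by 0.75. IRF1, an interferon-induced transcription factor, had 4.31 in the HIF2A array and 3.64 in the vector control, close to background, so it passed the filter through the HIF2A array alone and its difference is not given. Such a gene could enter only by being higher. The counts and both medians above still include it, so the share higher is not read as a direction of the list. IRF2, TAPBP and IFNGR1 were lower, at -0.70, -0.34 and -0.29. The neighbours of ERAP2, JAK1 and IRF2 had medians of 0.35, 0.35 and -0.40 in the direction of the gene, and those of TAP1 one of 0.14.

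Genes of ubiquitin supply and shuttling had no common direction, with 6 of 12 higher, 5 lower and a median of 0.01. Over all genes 52.6% were higher and 46.1% lower. After subtraction of neighbours 5 were higher and 7 lower, with a median of -0.03. SQSTM1, the ubiquitin-binding autophagy receptor, had 7.86 in the HIF2A array and 6.83 in the vector control, 2.04-fold higher. NPLOC4, a cofactor of the segregase VCP, and BAG6, a chaperone of misfolded proteins, were higher by 0.42 and 0.33, and VCP differed by 0.02. The ubiquitin-activating enzyme gene UBA6, UFD1 and the shuttle gene RAD23B were lower, at -0.40, -0.26 and -0.22. The ubiquitin gene UBB had the same signal, 10.53, in both arrays.

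**Figure D4:**
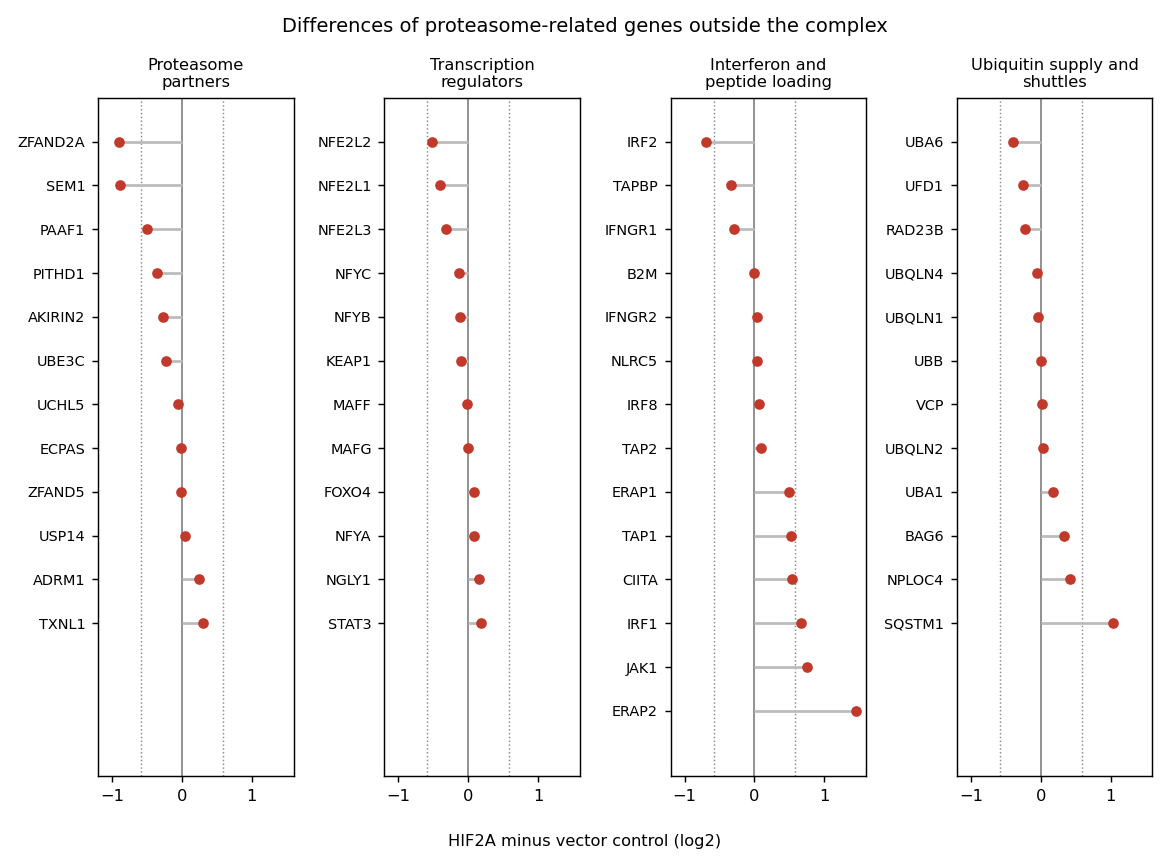
Difference in log2 signal, HIF2A minus vector control (horizontal axis), of the genes past the filter in 4 lists of proteasome-related genes, ordered from lowest to highest, with dotted lines at 1.5-fold. SEM1 and ZFAND2A lead the lower side of the partners, and SQSTM1 and ERAP2 the higher side of their lists. The point of IRF1 rests on a vector control signal close to background, and the gene passed the filter through the HIF2A array alone.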

How the data were processed

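Each group of LP-1 cells has 1 array. The authors deposited log2 signals for 28869 probe sets, for which the submitters' processing notes name Affymetrix Expression Console. The summarisation algorithm and background correction are not stated there. That the base is 2 was inferred, since the highest value, 13.97, lies above the natural log of a full 16-bit reading, 11.09. The array annotation gives a single symbol for 19310 probe sets.

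The brightest probe set stood for each gene, and 11469 of 18377 genes passed the filter. Neighbours were ordered by the RefSeq table of GRCh38.p14. Differences are HIF2A minus vector control, described by counts and medians, since no test is possible with 1 array per group. All proteasome genes are named, with up to 3 genes at each end of the other lists, and TAP1, TAP2, IFNGR2, NLRC5, IRF8, UBB and VCP besides, chosen after their values were seen. The members and lists were chosen with earlier results of these data known. Alternatives were quantile normalization, centring by median or loess (span 0.3, 3 passes), 32 added on the linear scale, other filters, probe set rules and folds, list means and subtraction of 20 neighbours. The code was tested on simulated data. Python 3.11.15, numpy 2.4.6, pandas 2.3.3, matplotlib 3.10.9 and statsmodels 0.14.6 did the computing. The precision is limited by the number of arrays.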

Additional observations from a re-analysis of the deposited data

How the results depend on the processing

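All 17 core and immunoproteasome genes past the main filter were lower under quantile normalization, median and loess centring, the added offset, the 75th percentile filter and both other probe set rules, and 16 were lower after neighbours were subtracted, with PSMA5 at 0.085. Many of these settings leave a gene's value unchanged by construction. Genes at least 1.5-fold lower, 4 in the main setting, came to 2 with 32 added, which shrinks dim genes and left PSMA2 and PSMB5, to 3 under median centring, without PSMB9, and to 5 after subtracting neighbours, without PSMA2 and with PSMA1 and PSMB8. At 2-fold 0 were lower, and at 1.2-fold, chosen after seeing the data, 16 were lower and 4 higher. The immunoproteasome median of -0.52 came to -0.66 after subtracting neighbours. The activator median of 0.01 was reversed to -0.015 by loess centring, to -0.075 by subtracting neighbours and to -0.10 as a mean, so it has no settled direction. The cause was not tested. Of 404 values of single genes under the alternatives, 17 were counted as moved by the probe set gap of 0.14. PSMB10, from -0.22 to -0.36 after subtracting neighbours, lies at that limit and was not counted. Sign changes numbered 9, in 7 genes, and 0 of the 9 belonged to genes 1.5-fold apart. PSMC6 came to -0.02 with the mean and -0.33 with the dimmest of its probe sets. No paired analysis was possible because each group has 1 array, and for the same reason leaving out a replicate was not possible. How far the differences would vary between cultures cannot be measured with these 2 arrays.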
